A study of Mus musculus with 2 samples.

Results

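The 10 genes described here encode cytokine chains and receptors of the IL-12, IL-6, IL-10 and IL-15 families: Il12a, Il12b, Il23a, Il27, Ebi3, Il6, Il10, Il10ra, Il15 and Il15ra. They were chosen by name, 10 of 24785 genes listed in either library, and all 10 had UMIs in both libraries. Lung leukocytes of C57BL/6N mice were sorted as living CD45+ cells for single-cell RNA-seq, in which every captured transcript was marked by a unique molecular identifier (UMI). The mice of the BLM group had received bleomycin, an antitumor drug that causes lung fibrosis in mice, 15 days earlier, and the naive mice were untreated. Either group was 1 library from a pool of 3 mice, so no test between groups could be made, and mouse, library preparation and treatment cannot be told apart.

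IL-12 and IL-23 share the chain encoded by Il12b, which pairs with the product of Il12a to form IL-12 and with that of Il23a to form IL-23. Ebi3 pairs with the product of Il27 to form IL-27, and with that of Il12a to form IL-35. Dendritic cells and macrophages make IL-12 and IL-23 after sensing microbes or damage, and through them they direct the programs of T cells, NK cells and innate lymphocytes. IL-6 is a cytokine of the acute phase response that macrophages, mast cells and fibroblasts can make. IL-10 dampens inflammation through a receptor whose ligand-binding chain is encoded by Il10ra. IL-15 maintains NK cells and memory T cells, and a dendritic cell shows it to them bound to the receptor chain encoded by Il15ra. Fscn1 encodes fascin, an actin-bundling protein of mature dendritic cells on their way to the lymph node, and its UMIs were used to tell dendritic cell states apart.

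Kept cells numbered 4393 in BLM and 3820 in naive, with 21216094 and 16973497 UMIs and medians of 2381 and 2701.5 UMIs per cell. A Ptprc UMI, the mRNA of CD45, was seen in 90.3% and 93.3% of them. Cell classes were rebuilt by clustering without the 10 genes and named from marker genes, so that each class name below means cells like that class, and values can differ from those under other names. The split of alveolar from interstitial or recruited macrophages rested on the integration of both libraries, since without it 0 BLM cells were called alveolar macrophages. There were 17 barcodes among kept cells that occurred in both libraries. Levels are given as CPM, the UMIs of a gene scaled to 1000000 UMIs of the class in that library, and brackets hold the exact Poisson 95% interval. Log2 ratios have exact conditional 95% intervals. These intervals cover counting error only, not the spread between mice or libraries, and UMIs of 1 cell are not independent.

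The genes lie on 10 different chromosomes of the mouse build GRCm38. In the gene models used here, Il12a spans chr3:68690644-68698547 on the plus strand and Il12b chr11:44400063-44414033 on the plus strand. Il23a spans chr10:128296139-128298752 on the minus strand, Il27 chr7:126589010-126594941 on the minus strand and Ebi3 chr17:55952640-55957022 on the plus strand. Il6 spans chr5:30013114-30019981 on the plus strand, Il10 chr1:131019845-131024974 on the plus strand and Il10ra chr9:45253837-45269149 on the minus strand. Il15 spans chr8:82331632-82403222 on the minus strand and Il15ra chr2:11705290-11734317 on the plus strand. All 10 are protein-coding.

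RefSeq windows (GRCm38.p6) of the 250 bases before the start were at hand for 5 of the 10 genes. Those of Il12b, Il15ra, Ebi3 and Il6 are shown, because these genes gave the main contrasts between dendritic cell states, dendritic cell classes and macrophages. All are on the plus strand and are read 5′ to 3′. Capitals mark matches, on either strand, to an NF-kappaB consensus, an IRF pair (GAAANNGAA), an AP-1 site (TGANTCA) or a C/EBP site (TTNNGCAA), where N is any base. Il15ra has 2 windows because 2 starts are listed.
Il12b, chr11:44399813-44400062: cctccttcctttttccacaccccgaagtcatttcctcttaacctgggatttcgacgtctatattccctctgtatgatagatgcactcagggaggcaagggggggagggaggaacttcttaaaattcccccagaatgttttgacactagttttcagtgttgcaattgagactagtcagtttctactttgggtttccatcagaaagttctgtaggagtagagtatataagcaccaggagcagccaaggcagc
Il15ra first window, chr2:11705043-11705292: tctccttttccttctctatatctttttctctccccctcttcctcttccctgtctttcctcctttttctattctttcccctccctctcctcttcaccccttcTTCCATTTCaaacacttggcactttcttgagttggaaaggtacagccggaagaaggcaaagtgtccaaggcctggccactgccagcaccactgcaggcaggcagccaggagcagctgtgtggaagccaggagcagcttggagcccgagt
Il15ra second window, chr2:11705462-11705711: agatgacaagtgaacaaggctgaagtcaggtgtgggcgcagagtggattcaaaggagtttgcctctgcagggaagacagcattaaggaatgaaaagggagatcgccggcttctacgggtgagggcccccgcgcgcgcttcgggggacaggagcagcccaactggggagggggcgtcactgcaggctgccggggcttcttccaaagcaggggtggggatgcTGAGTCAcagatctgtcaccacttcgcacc
Ebi3, chr17:55952373-55952622: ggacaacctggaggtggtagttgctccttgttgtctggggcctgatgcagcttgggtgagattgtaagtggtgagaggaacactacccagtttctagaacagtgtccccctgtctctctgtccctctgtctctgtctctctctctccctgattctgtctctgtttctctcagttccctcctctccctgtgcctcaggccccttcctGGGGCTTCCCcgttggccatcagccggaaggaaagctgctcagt
Il6, chr5:30012864-30013113: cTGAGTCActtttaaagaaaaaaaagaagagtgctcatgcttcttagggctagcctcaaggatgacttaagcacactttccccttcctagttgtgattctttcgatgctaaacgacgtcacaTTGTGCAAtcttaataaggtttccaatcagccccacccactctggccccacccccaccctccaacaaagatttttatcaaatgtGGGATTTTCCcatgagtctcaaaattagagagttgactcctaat
The Il6 window held an AP-1 match that began 249 bases before the start, a C/EBP match at 128 bases and an NF-kappaB match at 44 bases. The Ebi3 window held an NF-kappaB match at 44 bases, the first Il15ra window an IRF pair at 149 bases and the second an AP-1 match at 30 bases. No match to these 4 motifs was found in the 250 bases shown for Il12b, which says only that these letters are not in this window. Of all 32851 windows of the same length, 7.25% held an NF-kappaB match, 7.13% an IRF pair, 6.75% an AP-1 match and 9.56% a C/EBP match. A match is a sequence feature and not a measured binding site.

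The genes differed in their main source. Il12b came mostly from dendritic cells, Il6 mostly from macrophages and a few strong non-macrophage cells, and Il10 mostly from interstitial or recruited macrophages. Neutrophils were the largest source of Il15 and Il23a, and migratory dendritic cells and alveolar macrophages were the largest sources of Il15ra in BLM and naive. Il10ra and Ebi3 were spread over many classes, and Il12a and Il27 had the fewest UMIs. Over all kept cells Il12b had 724 UMIs in 87 BLM cells and 276 UMIs in 26 naive cells. Il6 had 1192 UMIs in 253 cells and 520 UMIs in 121 cells. Il10ra was the most widely seen of the 10, with 1536 UMIs in 1041 cells and 1608 UMIs in 1062 cells. At the other end, Il12a had 54 and 38 UMIs, and Il27 had 24 in each library.

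**Figure D1:**
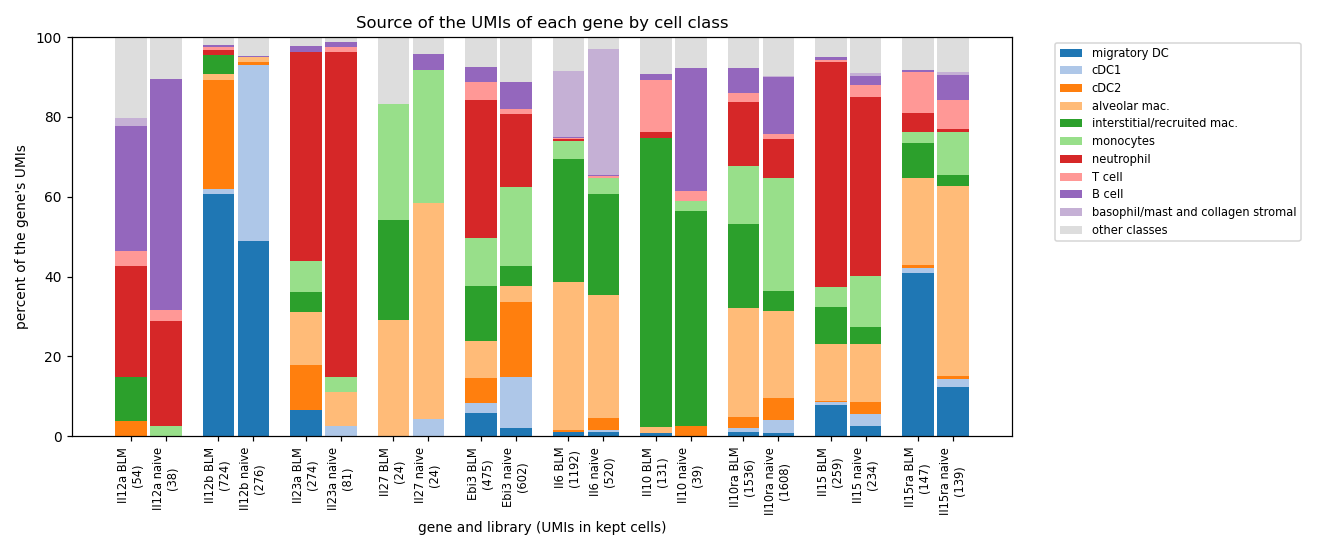
The stacked bars give the percent of each gene's UMIs found in each cell class, with 1 bar for each gene and library and the number of UMIs in kept cells under it. Migratory dendritic cells held 60.8% and 48.9% of the Il12b UMIs, and neutrophils held 56.4% and 44.9% of the Il15 UMIs, in BLM and naive.

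**Figure D2:**
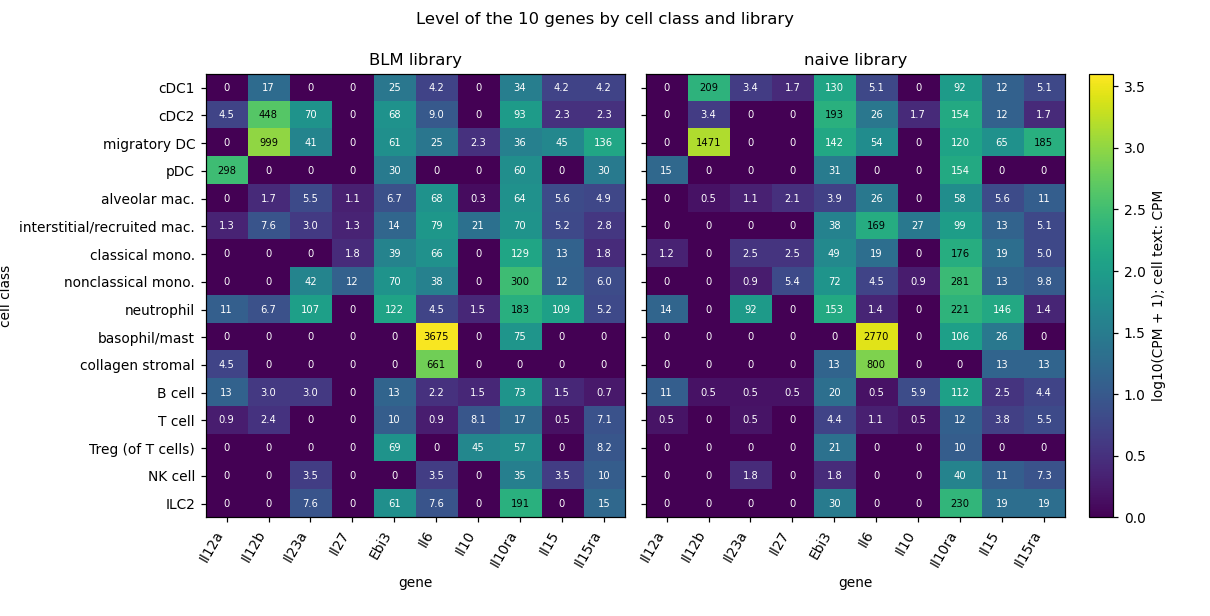
The colour of each tile is log10(CPM + 1) of 1 gene (columns) in 1 cell class (rows), the number in it is the CPM, and the panels are the BLM and the naive library. Il12b reached 448 CPM in BLM cDC2 against 3.41 CPM in naive cDC2, while cDC1 had 17 CPM in BLM and 209 CPM in naive.

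Il12b, the shared chain of IL-12 and IL-23, followed the Fscn1 state of dendritic cells in both libraries. Its level per UMI within a state, summed over classes, was close between the libraries, while the BLM library held more Fscn1-positive cells. Within the Fscn1-negative state, the conventional classes differed in opposite directions between the libraries, as given below. Dendritic cells here are the classes cDC1, cDC2 (the conventional type 1 and type 2 dendritic cells) and migratory dendritic cells. In BLM 74 of 193 dendritic cells (38.3%) had 1 or more Fscn1 UMIs, and in naive 19 of 191 (9.95%). Most of these cells were well past that minimum, since 67 and 16 of them had 3 or more Fscn1 UMIs. The migratory dendritic cells had a median of 20 Fscn1 UMIs in BLM and 25 in naive. A maturation marker that had no part in the split by state went the same way: Ccr7, the chemokine receptor that guides dendritic cells to the lymph node, was seen in 93.2% of Fscn1-positive and 32.8% of Fscn1-negative BLM cells.

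Il12b had 562 UMIs in the Fscn1-positive BLM cells, or 1150.4 CPM [1057, 1250], and 129 UMIs in the Fscn1-positive naive cells, or 971 CPM [811, 1153]. The BLM to naive log2 ratio within this state was 0.25 [-0.03, 0.53]. The Fscn1-negative cells had 84 UMIs (97.1 CPM) in BLM and 130 UMIs (115 CPM) in naive, at a log2 ratio of -0.24 [-0.66, 0.16]. Both intervals thus included equal levels and lay within 2-fold. Fscn1-positive against Fscn1-negative cells differed by a log2 ratio of 3.57 [3.23, 3.91] in BLM and 3.08 [2.71, 3.44] in naive. When the states were pooled, Il12b in all dendritic cells was 477 CPM in BLM and 205 CPM in naive, at a log2 ratio of 1.22 [1.01, 1.43]. With 3 or more Fscn1 UMIs as the minimum, the ratio within positive cells became -0.25, with levels of 1004.4 and 1195.3 CPM.

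An Il12b UMI was found in 34 of 74 Fscn1-positive cells of BLM (45.9%) and 10 of 19 of naive (52.6%), at median depths of 6116 and 6894 UMIs. Among Fscn1-negative cells it was found in 11 of 119 (9.24%) and 10 of 172 (5.81%). B cells, which served as the background, had an Il12b UMI in 0.629% of BLM and 0.122% of naive cells, at shallower medians of 1654 and 1957 UMIs. After each cell was thinned to 1000 UMIs, the Fscn1-positive shares were 31.5% and 31.1% and the Fscn1-negative shares 4.16% and 3.96%. The share of cells with Il12b therefore lay closer together between the libraries at equal depth than at full depth.

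The cells with most Il12b were few. In the migratory class 33 of 69 BLM cells held 440 UMIs and 9 of 14 naive cells held 135 UMIs, with 58 and 40 UMIs in the top cell. This gave 999 CPM [908, 1097] in BLM and 1471 CPM [1233, 1741] in naive migratory dendritic cells, intervals that did not overlap. Each was the highest class level of its library, with an interval apart from the next class.

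**Figure D3:**
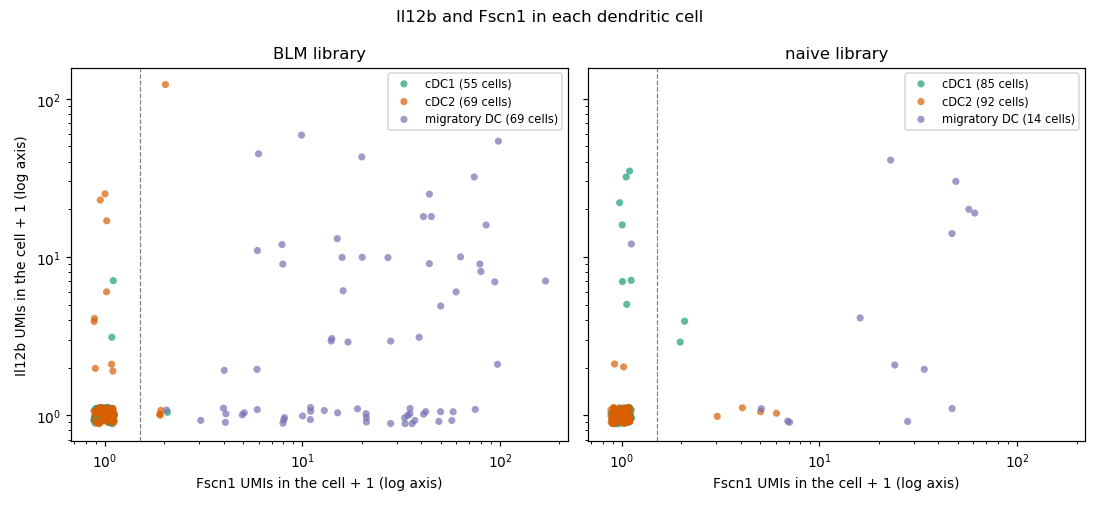
Each point is 1 dendritic cell, with Fscn1 UMIs + 1 on the x axis and Il12b UMIs + 1 on the y axis (both log axes, points moved slightly apart), coloured by class, and the dashed line parts cells with 0 from cells with 1 or more Fscn1 UMIs. Of the Il12b-positive cells left of the line, 9 of 11 were cDC2 in BLM and 7 of 10 were cDC1 in naive.

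Outside the migratory class, Il12b was found in a different conventional class in each library. In cDC2 it was 198 UMIs in BLM against 2 UMIs in naive (448 and 3.41 CPM), a log2 ratio of 7.04 [5.16, 10.09]. In cDC1 it was 8 UMIs in BLM against 122 UMIs in naive (17 and 209 CPM), a log2 ratio of -3.62 [-4.86, -2.59]. These sums rested on 10 of 69 BLM cDC2 and 9 of 85 naive cDC1. Without the top cell of the class in each library the log2 ratios were 6.70 and -5.14.

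A single BLM cDC2 cell held 122 of the 198 UMIs. It had 19055 UMIs in all and 1 Fscn1 UMI, with 15 Ccr7 and 16 Ccl22 UMIs and 21 Il23a UMIs. In Fscn1-negative cDC2, which leave this cell out, Il12b was 76 UMIs in BLM and 2 UMIs in naive (187 and 3.56 CPM), at a log2 ratio of 5.72. In Fscn1-negative cDC1 it was 8 and 117 UMIs, a log2 ratio of -3.58. The opposite order of the classes was thus also found among cells without Fscn1. All 11 Il12b-positive, Fscn1-negative BLM cells had a Ccr7 UMI and 9 had Ccl22, a chemokine of mature dendritic cells, and of the 10 such naive cells 6 had Ccr7 and 9 had Ccl22.

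Beyond dendritic cells Il12b was low. BLM interstitial or recruited macrophages had 35 UMIs, 26 of them in 1 cell, and the naive class had 0. The BLM level was 1.98-fold the naive floor of 3 counts. Alveolar macrophages had 11 UMIs in BLM and 3 in naive.

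The IL-15 receptor chain Il15ra had the sharpest split by dendritic cell state of the genes counted. Fscn1-positive cells had 60 UMIs (123 CPM [93.7, 158]) in BLM and 17 UMIs (128 CPM [74.5, 205]) in naive. Fscn1-negative cells had 3 UMIs (3.47 CPM) in BLM and 4 UMIs (3.54 CPM) in naive. The log2 ratio of positive to negative cells was 5.15 [3.53, 7.46] in BLM and 5.18 [3.56, 7.21] in naive. Between libraries the Fscn1-positive level differed by a log2 ratio of -0.06 [-0.86, 0.81]. An Il15ra UMI was found in 30 of 74 BLM and 8 of 19 naive Fscn1-positive cells, against 0.157% and 0.974% of B cells. At 1000 UMIs a cell, 12.5% of BLM and 15.6% of naive Fscn1-positive cells kept an Il15ra UMI.

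Il15ra in all dendritic cells was 63 UMIs in BLM and 21 UMIs in naive, at a log2 ratio of 1.49 [0.75, 2.27]. Migratory dendritic cells held 40.8% of the Il15ra UMIs in BLM and 12.2% in naive. Alveolar macrophages had the opposite order, with 32 UMIs (4.88 CPM) in BLM and 66 UMIs (10.8 CPM) in naive and a log2 ratio of -1.15 [-1.81, -0.52]. They held 21.8% of the BLM and 47.5% of the naive UMIs. With both macrophage classes pooled, a comparison chosen after seeing the data, the log2 ratio was -1.34.

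Il15 itself was also higher in Fscn1-positive dendritic cells. These had 20 UMIs (40.9 CPM) in BLM and 6 UMIs (45.2 CPM) in naive, against 3 and 14 UMIs in Fscn1-negative cells. The log2 ratio of positive to negative cells was 3.56 [1.81, 5.95] in BLM and 1.87 [0.20, 3.34] in naive. A UMI of both Il15 and Il15ra was found in Fscn1-positive cells 7 times among 74 in BLM and 4 times among 19 in naive, and the latter 4 were all the naive cells of that state with Il15. A missing UMI does not show that a transcript was absent.

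Neutrophils were the main source of Il15 by sum. They had 146 UMIs (109 CPM [91.9, 128]) in BLM and 105 UMIs (146 CPM [119, 177]) in naive, a log2 ratio of -0.42 [-0.80, -0.05] that stayed within 2-fold. An Il15 UMI was found in 12.2% of BLM and 20.8% of naive neutrophils at median depths of 1329 and 1580 UMIs, and after thinning in 9.27% and 14.0%. T cells had an Il15 UMI in 0.124% and 1.02% of cells at greater depth. In naive the neutrophil interval overlapped that of migratory dendritic cells, and in BLM it lay above it. Interstitial or recruited macrophages had 24 UMIs in BLM and 10 in naive, at a log2 ratio of -1.30 [-2.42, -0.07].

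**Figure D4:**
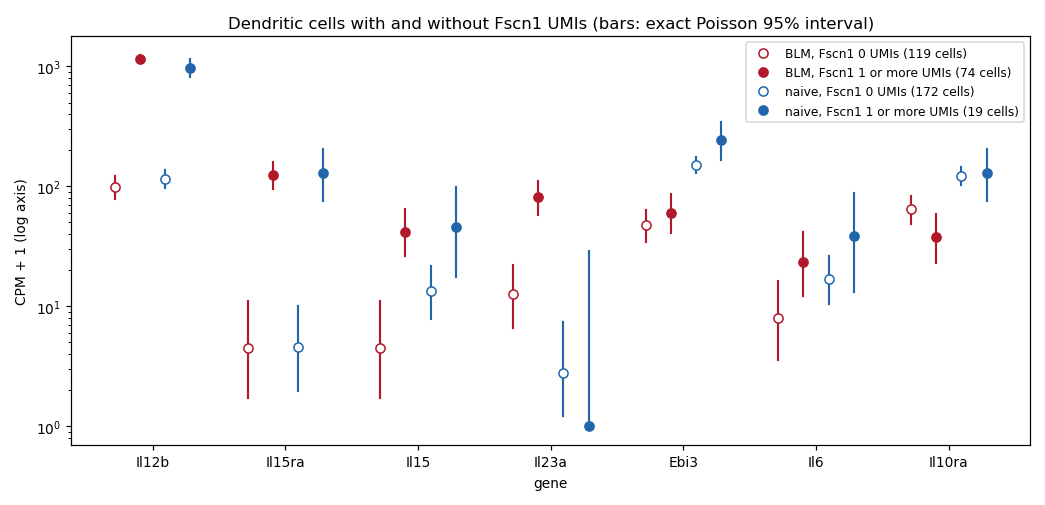
Points are CPM + 1 (log axis) of 7 genes in dendritic cells with 0 (open) or 1 or more (filled) Fscn1 UMIs, in red for BLM and blue for naive, with exact Poisson 95% intervals. Il12b and Il15ra lie apart by state in both libraries, Il15 has 3.47 CPM in Fscn1-negative and 40.9 CPM in Fscn1-positive BLM cells, and Ebi3 lies lower in both BLM states.

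Il23a, the chain specific to IL-23, was mainly a neutrophil transcript. Neutrophils had 144 UMIs in 71 BLM cells (107 CPM) and 66 UMIs in 27 naive cells (91.8 CPM), a log2 ratio of 0.23 [-0.20, 0.67]. They held 52.6% of the Il23a UMIs in BLM and 81.5% in naive. The lower BLM share went with Il23a in other myeloid classes, where much of it was in single cells. Interstitial or recruited macrophages differed in this, with 14 UMIs spread over 12 BLM cells, and 0 in naive. Alveolar macrophages had 36 and 7 UMIs, a log2 ratio of 2.25 [1.07, 3.67], and 2 BLM cells held 17 and 11 of the 36 UMIs. Nonclassical monocytes had 21 UMIs in BLM, 20 of them in 1 cell, and 1 UMI in naive, a log2 ratio of 5.55 [2.91, 10.92].

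Among dendritic cells Il23a had 49 UMIs in BLM and 2 in naive. Fscn1-positive cells had 39 UMIs in 3 cells in BLM (79.8 CPM) and 0 of 19 cells in naive. The BLM level was thus 3.54-fold the naive floor of 3 counts. This rested on few cells, since without the top cell the BLM sum was 18 UMIs (36.8 CPM, beside a naive floor of 22.6 CPM), and with 3 or more Fscn1 UMIs as the minimum it was 18 UMIs (41.1 CPM, beside a floor of 28.9 CPM), both under the 20 UMIs needed to count and within 2-fold of the floor. Fscn1-negative cells had 10 UMIs in BLM and 2 in naive, the latter in 2 cDC1. All 3 Fscn1-positive cells with Il23a also had Il12b. In BLM cDC2 there were 31 UMIs, 21 of them in the cell with most Il12b, against 0 in naive. The BLM cDC2 level was 13.7-fold the naive floor of 3 counts. Over all cells 7 BLM cells and 1 naive cell had UMIs of both Il12b and Il23a.

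Ebi3, the chain shared by IL-27 and IL-35, was lower in BLM dendritic cells of every kind counted. In cDC1 it was 12 UMIs in BLM and 76 in naive (25.5 and 130.0 CPM), at a log2 ratio of -2.35 [-3.36, -1.46]. In cDC2 it was 30 and 113 UMIs (67.9 and 193 CPM), a log2 ratio of -1.51 [-2.14, -0.91]. The Fscn1-positive cells had 29 and 32 UMIs (59.4 and 241 CPM) with a log2 ratio of -2.02 [-2.80, -1.25]. In naive 13 of these 32 UMIs were in 1 cell, and without the top cell of each library the levels were 51.2 and 143 CPM. The Fscn1-negative cells had 40 and 170 UMIs (46.2 and 150.4 CPM) with a log2 ratio of -1.70 [-2.24, -1.20]. The order was thus the same in both states, and an Ebi3 UMI was found in 40 of 193 BLM and 101 of 191 naive dendritic cells (20.7% and 52.9%). After thinning, the shares in Fscn1-negative cells were 4.02% and 13.1%. B cells had an Ebi3 UMI in 2.52% and 3.90% of cells.

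Unlike Il12b, Ebi3 was within 2-fold between states by value. The log2 ratio of positive to negative cells was 0.36 [-0.38, 1.09] in BLM and 0.68 [0.09, 1.23] in naive. The naive interval lay above equal levels, and both intervals reached past 2-fold. Interstitial or recruited macrophages also had less Ebi3 in BLM, with a log2 ratio of -1.42 [-2.07, -0.75]. Neutrophils were within 2-fold at 164 and 110 UMIs (122 and 153 CPM, log2 ratio -0.32), and held 34.5% and 18.3% of the Ebi3 UMIs. In nonclassical monocytes the log2 ratio was -0.05. T cells had the opposite order, with 22 and 8 UMIs and a log2 ratio of 1.25 [0.03, 2.63]. Of these, regulatory T cells held 17 UMIs in BLM and 2 in naive (69.5 and 20.7 CPM), and their interval of [-0.33, 4.90] included equal levels.

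Il27, the other chain of IL-27, was near the limit of detection. Alveolar macrophages had 7 UMIs in BLM and 13 in naive, at a log2 ratio of -1.0 [-2.57, 0.43], and nonclassical monocytes had 6 in each library. No cell held more than 2 Il27 UMIs, and 2 cells in each library had UMIs of both Il27 and Ebi3.

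Il12a, the chain specific to IL-12, was nearly absent from the counts of conventional and migratory dendritic cells. They had 2 Il12a UMIs in BLM and 0 in naive, while B cells had 17 and 22 and neutrophils 15 and 10. The B cell log2 ratio was 0.23 and that of neutrophils was -0.31. Both Il12a and Il12b were found in 2 BLM cells, which were neutrophils, and in 0 naive cells. The plasmacytoid dendritic cells (pDC), which were set apart from cDC2 after seeing the data, numbered 8 in BLM and 13 in naive. In BLM 5 of the 8 held 10 Il12a UMIs (298 CPM [143, 549]), and in naive 1 UMI was found (15.4 CPM [0.391, 86.0]). The pDC thus had the highest class level of Il12a, with an interval apart from the next class in BLM and overlapping it in naive.

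Il6 had different strong sources. The highest levels per UMI were in the basophil or mast cell class, where 3 of 5 BLM cells held 49 UMIs and 7 of 11 naive cells held 105 UMIs. This amounted to 3675 and 2770.3 CPM. Next were the collagen-expressing stromal cells in the CD45+ sort, with 147 UMIs in 27 BLM cells and 60 UMIs in 14 naive cells (661 and 800.1 CPM). Both classes were too small to compare between libraries. Their top cells held 20 and 49 UMIs (basophil or mast cells) and 75 and 32 UMIs (stromal cells).

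By sum, macrophages held most of the Il6. Alveolar macrophages had 445 UMIs in BLM and 161 in naive (67.8 and 26.4 CPM), at a log2 ratio of 1.36 [1.10, 1.63]. In BLM 95 of 499 cells (19%) had an Il6 UMI and in naive 47 of 586 (8.02%), at median depths of 12470 and 9946 UMIs. After thinning, these shares were 4.42% and 1.69%. B cells had an Il6 UMI in 0.472% and 0.122% of cells. Interstitial or recruited macrophages went the other way per UMI, with 365 and 132 UMIs (79.2 and 169 CPM), a log2 ratio of -1.09 [-1.39, -0.80], and an Il6 UMI in 69 of 468 and 27 of 124 cells.

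The pooled macrophages, a comparison chosen after seeing the data because the split rested on the integration, had 810 and 293 UMIs. Their log2 ratio was 0.77 [0.57, 0.96] and thus within 2-fold, but it was 1.02, past 2-fold, when counted as UMIs per cell. Without integration it was 2.05, but there no BLM cells were called alveolar macrophages. The largest BLM sum of Il6 was then in an unnamed cluster, so that value does not compare all macrophages. The Il6 of macrophages was uneven between cells. In BLM 12 alveolar macrophages with 10 or more UMIs held 56.6% of the Il6 of the class, and in naive 4 such cells held 51.6%. In interstitial or recruited macrophages 12 and 3 such cells held 61.1% and 43.2%. For the interstitial or recruited class the value depended on the processing: per cell the log2 ratio was -0.45, with doublets kept it was -0.63, with at most 10% mitochondrial UMIs it was -0.75 and without integration it was -0.53.

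Monocytes also had more Il6 per UMI in BLM. Classical monocytes had 37 and 15 UMIs with a log2 ratio of 1.83 [0.93, 2.80] (3.12 without the top cell), and nonclassical monocytes had 19 and 5 UMIs with a log2 ratio of 3.08 [1.61, 4.86]. Dendritic cells had little, with 6 BLM and 18 naive UMIs in Fscn1-negative cells and a log2 ratio of -1.20 [-2.82, 0.20]. Between states, the naive Fscn1-positive cells had 5 UMIs, a log2 ratio to the negative cells of 1.24 [-0.54, 2.72].

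Il10, the anti-inflammatory cytokine of the set, came from interstitial or recruited macrophages and lymphocytes. These macrophages had 95 UMIs in BLM, from 18 of 468 cells, and 21 UMIs in naive, from 8 of 124 cells, which was 72.5% and 53.8% of the Il10 UMIs. Per UMI the class was at 20.6 and 26.9 CPM, a log2 ratio of -0.38 [-1.08, 0.37]. The library total of Il10 thus was higher in BLM, at 131 against 39 UMIs, while the level within its main class was not higher. The top 3 cells held 19, 16 and 12 UMIs in BLM and 7, 4 and 4 in naive. With the macrophage classes pooled, the log2 ratio was 1.51 [0.81, 2.26].

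T cells had 17 Il10 UMIs in BLM and 1 in naive. Of these, 11 were in 7 of 76 BLM regulatory T cells, against 0 of 27 naive regulatory T cells. The level in BLM regulatory T cells, 44.9 CPM, was 1.44-fold the naive floor of 3 counts. With a lower log2 bound of -0.02, equal levels in regulatory T cells were not excluded. B cells had 2 UMIs in BLM and 12 in naive, 8 of the latter in 1 cell. A cluster of cycling lymphocytes that was left unnamed had 11 and 3 UMIs.

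Il10ra, the IL-10 receptor chain, was highest in nonclassical monocytes, with 151 UMIs (300.4 CPM [254, 352]) in BLM and 315 UMIs (281 CPM [251, 314]) in naive. The next classes were the group 2 innate lymphoid cells (ILC2) at 191 and 229.9 CPM and neutrophils at 183 and 221 CPM, and the intervals of each neighbouring pair overlapped. T cells were lowest among the large lymphocyte classes at 16.6 and 11.5 CPM. The nonclassical monocyte levels were close, with a log2 ratio of 0.10.

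Dendritic cells had less Il10ra in BLM. In cDC1 it was 16 and 54 UMIs, a log2 ratio of -1.44 [-2.35, -0.62], and in cDC2 the log2 ratio was -0.73 [-1.30, -0.18]. Fscn1-positive cells had 18 UMIs (36.8 CPM) in BLM and 17 UMIs (128 CPM) in naive, at a log2 ratio of -1.80 [-2.84, -0.75]. Fscn1-negative cells had 55 and 138 UMIs with a log2 ratio of -0.94 [-1.42, -0.48], which stayed within 2-fold. B cells had a log2 ratio of -0.63 [-0.98, -0.28].

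**Figure D5:**
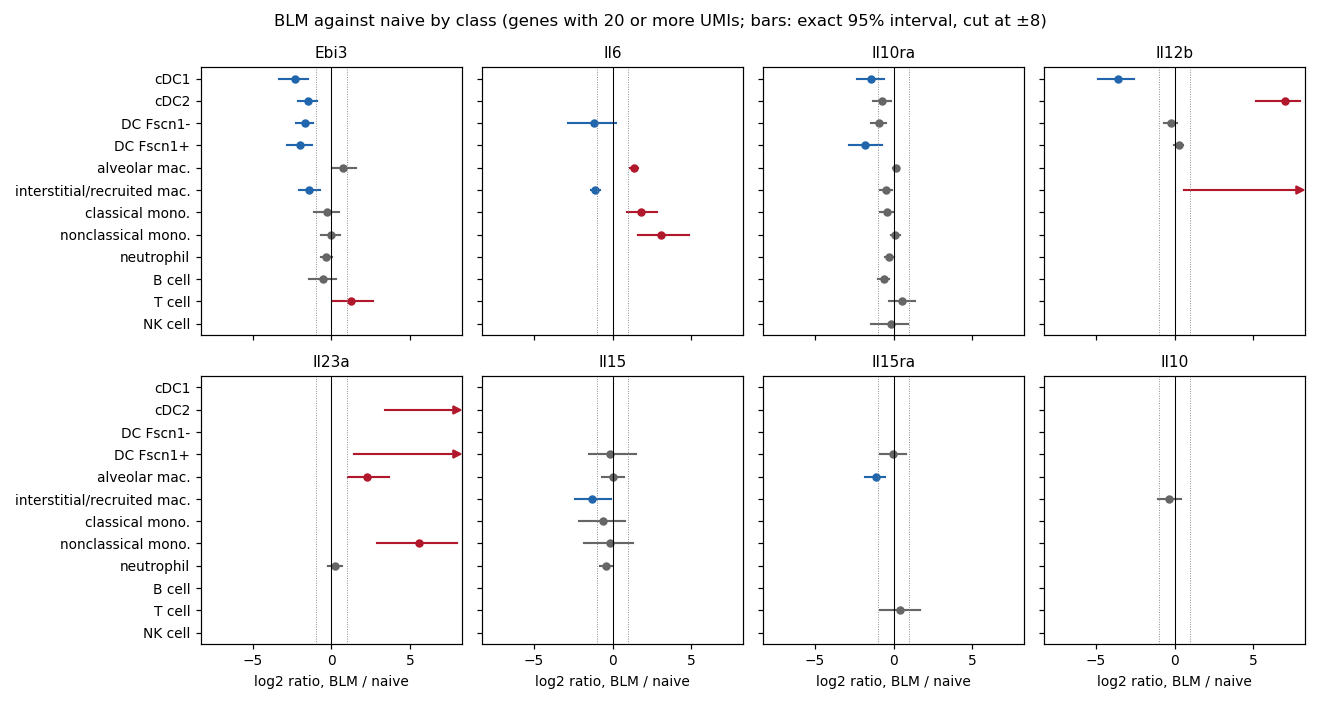
Each panel is 1 gene, with the log2 ratio of CPM of BLM to naive on the x axis, classes and Fscn1 states on the y axis, and exact 95% intervals limited to the plotted range, for sums of 20 or more UMIs. Red and blue mark values past 2-fold, arrows mark a naive sum of 0, and Il12b and Il6 have classes on both sides of 0.

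Counted over the classes, most of the values past 2-fold were in dendritic cells and macrophages. A gene was counted where both libraries together had 20 or more UMIs, and a sum of 0 on 1 side was taken as past 2-fold for members and all genes alike. In cDC1 3 genes could be counted, and 0 were higher and 3 lower in BLM, where 6.54% of all genes counted were higher and 9.04% lower. In cDC2 2 of 4 were higher and 1 lower, beside 5.73% and 7.05% of all genes. The higher genes were Il12b and Il23a, with 122 of 198 and 21 of 31 BLM UMIs in 1 cell. Without its top cell Il23a had 10 BLM UMIs and 0 in naive, under the 20 needed to count. In alveolar macrophages 2 of 7 were higher and 2 lower, beside 6.26% and 10.1%. The higher genes there were Il23a, mostly from 2 BLM cells, and Il6. The lower ones were Il15ra and Il27, the latter at a log2 ratio of -1.0 with an interval that included equal levels. In interstitial or recruited macrophages 1 of 6 was higher and 3 were lower, beside 7.08% and 10.8%. The higher gene was Il12b, which was counted because its naive sum was 0, although its level of 1.98-fold the floor is not past 2-fold. The pooled macrophages had 3 of 9 higher and 1 lower, beside 6.55% and 10.5%.

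In monocytes the members past 2-fold were higher in BLM. In classical monocytes they were 1 of 4, where 3.97% of all genes were higher and 5.09% lower, and in nonclassical monocytes 2 of 5, where 2.65% were higher and 5.32% lower. The 2 genes of nonclassical monocytes were Il6 and Il23a, the latter with 20 of its 21 BLM UMIs in 1 cell. In T cells 1 of 3 was higher and 0 lower, beside 2.53% and 3.74%. In neutrophils 0 of 5 were past 2-fold in either direction, where 3.82% of all genes were higher and 6.7% lower. In B cells 0 of 3 were (1.5% and 4.89%), and in NK cells 0 of 1 (1.92% and 6.32%). The median log2 ratio of all genes counted lay between -0.21 and 0.04 in these comparisons.

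In Fscn1-positive dendritic cells 1 of 6 was higher in BLM and 2 were lower, beside 10.4% and 9.32% of all genes, and in Fscn1-negative cells 0 of 4 were higher and 2 lower, beside 4.84% and 7.2%. Between the states, 4 of 6 were higher in Fscn1-positive cells of BLM (Il12b, Il23a, Il15 and Il15ra), where 12.6% of all genes were. In naive 4 of 6 were higher (Il12b, Il6, Il15 and Il15ra), where 11.4% of all genes were. Il6 there rested on 5 UMIs in 2 of 19 cells, 4 of them in 1 cell. Its interval of [-0.54, 2.72] included equal levels. Over all kept cells 3 of 10 were higher (5.19% of all genes): Il12b with a log2 ratio of 1.07 [0.87, 1.27], Il23a with 1.44 [1.07, 1.81] and Il10 with 1.43 [0.90, 1.98]. Of the others, Il6 was at 0.87 [0.73, 1.03]. In such sums, more cells of a class and more RNA per cell cannot be told apart.

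A list of 60 further genes of these pathways (receptors, kinases and STATs, feedback inhibitors, other cytokines of the families, transcription factors, upstream sensors and lymphocyte targets) was read beside the members. Between dendritic cell states, 9 of 33 counted genes were higher and 3 lower in Fscn1-positive BLM cells, and 10 of 35 higher and 3 lower in naive cells. Of all genes, 12.6% were higher and 17.4% lower in Fscn1-positive cells in BLM, and 11.4% and 19.2% in naive. Socs2, a feedback inhibitor of cytokine signaling, was 238 against 10 UMIs in BLM, a log2 ratio of 5.40, and 3.73 in naive. Stat4, the transcription factor downstream of IL-12, had log2 ratios of 3.31 and 3.09. Relb, an NF-kappaB subunit of dendritic cell maturation, had 170 and 43 UMIs and a log2 ratio of 2.81 in BLM. The IL-6 receptor gene Il6ra was lower in Fscn1-positive cells, with log2 ratios of -1.69 in BLM and -1.68 in naive, and so was the feedback inhibitor Socs3 at -1.14 and -1.70.

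Between libraries, cDC1 had 3 of 27 pathway genes higher and 12 lower in BLM, beside 6.54% and 9.04% of all genes. The lower ones included Nfkbiz, an NF-kappaB cofactor (-2.61), Il2rg, the common gamma chain of the IL-15 receptor (-2.37), and Cd40, the costimulatory receptor that drives IL-12 (-1.75). In cDC2 4 of 34 were higher and 3 lower, beside 5.73% and 7.05%, and the lower ones included Relb (-1.71). Osm, oncostatin M of the IL-6 family, was higher in BLM in cDC1 (3.22), cDC2 (1.71), alveolar macrophages (1.93) and interstitial or recruited macrophages (2.08). In alveolar macrophages 6 of 43 were higher and 6 lower, beside 6.26% and 10.1%, with Socs3 at 2.82 and Lif, another cytokine of the IL-6 family, at 1.68. In interstitial or recruited macrophages 2 of 39 were higher and 10 lower, beside 7.08% and 10.8%, with Stat3, which carries IL-6 and IL-10 signals, at -1.47 and Maf, a transcription factor of Il10, at -1.32.

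The receptors for these cytokines had their highest levels elsewhere. The IL-12 receptor chain Il12rb2 was highest in NK cells at 230.4 CPM (BLM) and 232.7 CPM (naive). The IL-23 receptor Il23r was highest in gamma delta T cells, with 8 UMIs (38.6 CPM) in BLM and 30 UMIs (136.8 CPM) in naive, and in all T cells its log2 ratio was -1.99. The T cell product Il22, which IL-23 can induce, had a log2 ratio of -4.42. Il2rb, the IL-15 receptor chain, was highest in NK cells at 3009 and 3417 CPM, and Il6ra in monocytes.

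The genes with the most similar pattern were sought by Pearson correlation of log2(CPM + 10) over 40 class and library pairs, among 11996 genes, as a description, since the pairs share libraries and depth. For Il12b these were Zfp366 (r = 0.83), Ccl22 (0.83) and Il4i1 (0.81). For Il15ra they were Lad1 (0.75), Nudt17 (0.74) and Slco5a1 (0.73). For Il15 the first was Aqp9 (0.90), for Il6 Colec12 (0.92), for Il23a Ptgs2os2 (0.79), for Ebi3 Marcksl1 (0.79), for Il10 Nutf2 (0.72) and for Il10ra Krt80 (0.83).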

How the data were processed

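The deposited UMI counts, 1 table for each library, had been made by the authors with the BD Rhapsody WTA pipeline (build GRCm38), with cells in rows, genes in columns and no normalization. Genes missing from 1 table were set to 0 there. Barcodes needed 200 or more genes and no more than 15% mitochondrial UMIs, and the scored barcodes in the highest 3% of Scrublet scores (scanpy 1.11.5) of each library were left out as doublets (133 in BLM, 105 in naive), because the automatic threshold called 8 and 61. Libraries were integrated and clustered in Seurat 5.3.0 (R 4.3.3, 2000 variable genes without the 10 genes and Tff1, resolution 0.5), and clusters were named from marker genes. UMIs were summed per class and library in Python 3.11.15 (numpy 2.4.6, pandas 2.3.3, scipy 1.17.1). Scaling by TMM used edgeR 4.0.16, with no edgeR test, and figures were drawn with matplotlib 3.10.9.

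With 1 library per group no test was run. A value counted as past 2-fold among genes with 20 or more UMIs over both sides, with a sum of 0 on 1 side taken as past it, and the percent of all such genes past it is given beside each count. Shares have exact Clopper-Pearson 95% intervals, and a count of 0 was set at a floor of 3 counts. Shares of cells were repeated with every cell thinned to 1000 UMIs. Classes under 50 cells in either library were left out of the counts over classes, and regulatory T cells and Fscn1-positive dendritic cells, which have fewer in naive, are compared by their values. The ratio code was checked on simulated counts. The alternatives were scaling, filters on cells, doublets, clustering, the Fscn1 minimum and leaving out the cell with most UMIs of the gene. Setting pDC apart, pooling the macrophage classes and leaving out barcodes shared by both libraries were added after seeing the data.

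Of the pathway list, the genes named in a comparison came from the 3 highest and 3 lowest by the interval bound nearer 0, and receptors were named by the class of their highest level. For likeness, the rule took the 3 genes with the highest correlation to each member with 50 or more UMIs. The 10 genes and all lists were chosen with earlier results of these data known.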

Additional observations from a re-analysis of the deposited data

Results flagged for a closer look

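Of the 10 genes, 3 had classes past 2-fold in opposite directions between the BLM and naive libraries. The share of all genes with such opposite classes was not counted, so 3 of 10 cannot be read as a trait of these genes. These differences between classes were not tested, since each group was 1 library. Il12b had a log2 ratio of 7.04 in cDC2 and -3.62 in cDC1. Ebi3 had a log2 ratio of 1.25 [0.03, 2.63] in T cells, with an interval close to equal levels. Against this it had -1.42 in interstitial or recruited macrophages, -2.35 in cDC1 and -1.51 in cDC2. Il6 had log2 ratios of 1.36 in alveolar macrophages, 1.83 in classical monocytes and 3.08 in nonclassical monocytes, against -1.09 in interstitial or recruited macrophages. As given above, the Il6 value of interstitial or recruited macrophages depended on the processing. It lay within 2-fold per cell, with doublets kept, with at most 10% mitochondrial UMIs and without integration.

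The barcodes that failed the filters or were left out as doublets (321 in BLM, 242 in naive) also held UMIs of the genes, and 3 of the genes are given because their BLM level was above that of the naive barcodes left out. Other genes had the opposite order, such as Il15 at 5.49 CPM in BLM and 24.9 CPM in naive. Il6 was at 69.8 CPM in BLM (89 UMIs in 22 barcodes) and 7.65 CPM in naive, a log2 ratio of 3.19 [2.15, 4.45]. Il23a was at 19.6 CPM (25 UMIs in 13 barcodes) and 3.83 CPM, a log2 ratio of 2.36 [0.82, 4.34]. Il10 was at 16.5 CPM (21 UMIs in 4 barcodes) and 6.70 CPM, a log2 ratio of 1.30 [0.01, 2.78]. Which cells these barcodes came from was not tested.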

How the results depend on the processing

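No paired analysis was possible because each group was 1 library. Among log2 ratios that still had 20 or more UMIs, none past 2-fold turned its direction under any alternative run. Of the recomputed log2 ratios 970 moved by less than their counting interval and 35 by more. The count of gene and class pairs higher in BLM was 9 and became 5 without the cell with most UMIs of the gene, when 34 pairs instead of 41 had 20 or more UMIs. The count of pairs lower in BLM was 9 and became 4 without integration and 4 with UMIs per cell as the scale. Without integration the 2 lower pairs of alveolar macrophages could not be counted, since no BLM cells were called so. In Fscn1-positive dendritic cells the 1 gene higher in BLM became 0 without the top cell and 0 with 3 or more Fscn1 UMIs as the minimum, with 18 Il23a UMIs in each case. In Fscn1-negative cells the 2 genes lower in BLM became 1 with 500 or more genes per cell (Il6 log2 ratio -0.21), 1 with the members kept among the variable genes (-0.84) and 1 without the top cell, where Il6 had 4 and 14 UMIs (4.62 and 12.4 CPM) and could no longer be counted. Between states in naive, the 4 genes higher in Fscn1-positive cells became 1 without the top cell. There the others fell under the 20 UMIs needed to count, with Il15ra at 13 against 3 UMIs (97.8 and 2.65 CPM), Il15 at 4 against 11 UMIs (30.1 and 9.73 CPM) and Il6 at 1 against 14 UMIs (7.53 and 12.4 CPM). Of these, Il6 turned its direction. Thinning cells to 1000 UMIs moved 134 of the shares of cells and left 14, so that depth limits what shares show. The Il6 log2 ratio of pooled macrophages was 2.05 without integration, where the BLM side held no cells called alveolar macrophages. The causes of the other changes were not tested.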

Other observations

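Among T cells, 2 of 47 counted genes of the pathway list were higher in BLM and 3 lower, near the 2.53% and 3.74% of all genes. By value these included Socs3 at a log2 ratio of 1.16, Il12rb1, a shared receptor chain of IL-12 and IL-23, at 2.01 and Gzmb, a granzyme of cytotoxic cells, at -1.35. In neutrophils, where 3.82% of all genes were higher and 6.7% lower, 4 of 31 were higher, among them the kinase gene Jak2 (333 and 64 UMIs, log2 ratio 1.48) and the NF-kappaB subunit gene Rel (581 and 133 UMIs, 1.23), and 4 were lower, among them Stat3 and Irf1. Both Il12a and Ebi3 were found in 5 cells of each library.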
